A study of Mus musculus with 4 samples.

Results

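Entry into the cell cycle was followed through 10 genes of the cyclin D and CDK inhibitor pathway in the mouse carotid artery before and after wire injury. They were picked by name: the D-type cyclins Ccnd1, Ccnd2 and Ccnd3, the E-type cyclin Ccne1, the Cip/Kip inhibitors Cdkn1a, Cdkn1b and Cdkn1c, and the INK4 inhibitors Cdkn2a, Cdkn2b and Cdkn2c. They were 10 of the 31053 genes listed, and all 10 had at least 1 transcript in every library. Single-cell libraries were made from left carotid arteries of C57BL/6 male mice aged 11 weeks before injury, with 1 library from uninjured vessels (day 0) and 1 each from days 3, 7 and 14 post-injury. No gene or drug treatment set the groups apart. In wire injury, a wire is passed through the vessel and strips its inner lining. The deep form used here also disrupts the internal elastic lamina. Several arteries were pooled for each library and vessels with a thrombus were left out. Each time point was therefore 1 sample with no replicate, no test between days was possible, and a difference between days cannot be told apart from a difference between libraries. Levels are unique molecular identifiers (UMIs, 1 per captured transcript) of a gene summed over the cells of a class, scaled to the total UMIs of those cells (CPM, counts per 1000000). The 3′ kit captures transcript ends, so CPM was not divided by gene length. Ranges in parentheses are exact 95% intervals and cover counting error only.

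D-type cyclins bind CDK4 and CDK6 when a cell receives mitogens, and the complexes phosphorylate the retinoblastoma protein, which releases E2F factors and with them Ccne1 and the genes of DNA synthesis. INK4 proteins bind CDK4 and CDK6 and block them, and Cip/Kip proteins mainly inhibit CDK2 complexes. In the injured artery these genes are studied because medial smooth muscle cells, quiescent in the intact vessel, divide as the neointima forms.

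The Cdkn2a locus encodes 2 proteins from separate first exons: p16Ink4a, an INK4 inhibitor, and p19Arf, which stabilises p53. Both share their 3′ exons, so a 3′ count cannot separate them. Cdkn2a lies at chr4:89274473-89294619 and its neighbour Cdkn2b at chr4:89306289-89311032, 11669 bases away. RefSeq promoters (GRCm38.p6, 250 bases before to 50 after a start site) were held for 7 members, 11 start sites in all, and not for Ccnd1, Ccnd2 and Cdkn1c. They were searched on both strands for 4 E2F core motifs, TTTCCCGC, TTTGGCGC, TTTGCCGC and TTTCGCGC. Of all 32851 promoters in the table, 744 (2.26%) held at least 1 of them. Among the members only 1 of the 11 did, the upstream start of Cdkn2a, with TTTCCCGC beginning 99 bases before the start site. Promoters of the INK4 members (for Cdkn2c, the upstream of its start sites) are shown because, with all cells counted, these genes gave each of the differences past 2-fold from day 0 in fibroblast-like cells. They are given 5′ to 3′ on the minus strand, with the motif in capitals.
Cdkn2a, upstream start (p19Arf), chr4:89294570-89294869: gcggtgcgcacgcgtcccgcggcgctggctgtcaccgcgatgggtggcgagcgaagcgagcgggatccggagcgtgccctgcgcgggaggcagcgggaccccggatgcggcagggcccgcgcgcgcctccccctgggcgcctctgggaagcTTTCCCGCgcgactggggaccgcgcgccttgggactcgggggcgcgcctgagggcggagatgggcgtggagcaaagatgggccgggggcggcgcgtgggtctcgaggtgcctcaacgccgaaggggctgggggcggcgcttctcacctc
Cdkn2a, downstream start (p16Ink4a), chr4:89282143-89282442: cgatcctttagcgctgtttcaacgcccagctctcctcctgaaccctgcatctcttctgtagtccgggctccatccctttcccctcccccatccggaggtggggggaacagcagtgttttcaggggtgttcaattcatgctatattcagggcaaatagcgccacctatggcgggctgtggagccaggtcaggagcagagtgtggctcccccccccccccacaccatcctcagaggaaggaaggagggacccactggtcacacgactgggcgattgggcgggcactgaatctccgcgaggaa
Cdkn2b, chr4:89310983-89311282: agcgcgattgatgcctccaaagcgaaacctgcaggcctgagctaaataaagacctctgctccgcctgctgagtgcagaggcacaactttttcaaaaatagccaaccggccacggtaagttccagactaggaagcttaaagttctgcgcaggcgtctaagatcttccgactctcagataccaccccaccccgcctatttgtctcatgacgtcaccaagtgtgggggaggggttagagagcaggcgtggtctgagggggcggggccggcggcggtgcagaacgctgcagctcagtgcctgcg
Cdkn2c, upstream start, chr4:109666707-109667006: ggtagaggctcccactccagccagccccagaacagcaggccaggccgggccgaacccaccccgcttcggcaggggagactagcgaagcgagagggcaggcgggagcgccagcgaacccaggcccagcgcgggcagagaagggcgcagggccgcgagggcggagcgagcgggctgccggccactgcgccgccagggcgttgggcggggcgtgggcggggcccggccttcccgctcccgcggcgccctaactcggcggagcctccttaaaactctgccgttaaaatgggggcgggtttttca

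The libraries held 333, 1689, 3001 and 1138 barcodes on days 0, 3, 7 and 14, with 2672722 to 27973418 UMIs in all and a median of 4325 to 9028.5 per barcode. After filtering, 5621 of 6161 cells were kept and grouped into 32 clusters without using the 10 genes, and clusters were named by marker genes as like a cell class. Across the libraries 217 barcodes occurred more than once, 212 of them among the cells kept. Cells left unnamed numbered 890 (15.8%) and held between 0.595% (Cdkn2b) and 11.7% (Ccnd1) of a member's UMIs. Fibroblast-like cells numbered 233, 193, 165 and 496 on days 0, 3, 7 and 14, and smooth muscle-like cells 25, 118, 98 and 96. A few deep cells carried much of the stromal signal: cells of over 30000 UMIs gave 85.1% and 77.3% of fibroblast-like UMIs on days 3 and 7, and 86.4% and 72.9% of smooth muscle-like UMIs, whereas day 0 had none in either class. Leaving those cells out moved 8 of 39 member levels by over 1.5 times in fibroblast-like cells and 13 of 38 in smooth muscle-like cells. The 8 do not count Cdkn2a in fibroblast-like cells on day 3, which went from 2.93 CPM to 0.

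**Figure D1:**
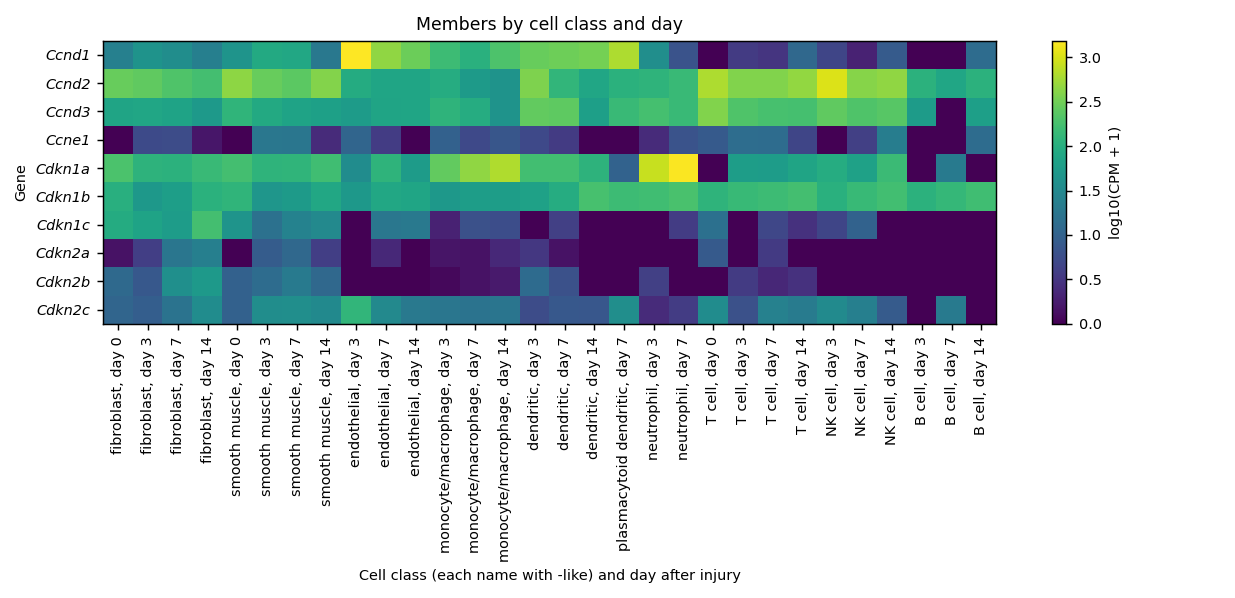
Level of each of the 10 genes (rows) in each cell class and day with at least 10 cells (columns), as log10(CPM + 1) of summed UMIs. Ccnd1 is highest in endothelial-like cells on day 3 (1542 CPM), Cdkn1a in neutrophil-like cells on day 7 (1470.4 CPM), and Cdkn1c, Cdkn2a and Cdkn2b in fibroblast-like cells on day 14 (171, 23.0 and 50.1 CPM).

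The D-type cyclins were divided among the cell classes. Ccnd1 was the main D-type cyclin of endothelial-like cells on day 3, Ccnd2 that of fibroblast-like, smooth muscle-like, T cell-like and NK cell-like cells, and monocyte/macrophage-like cells held all 3. In T cell-like and NK cell-like cells, Ccnd1 supplied between 0 and 1.66% of the D-type UMIs on any day. In fibroblast-like cells, Ccnd2 supplied 74.7% (71.6 to 77.6) of them on day 0, 68.6% (66.2 to 70.9) on day 3, 65.7% (63.2 to 68.2) on day 7 and 70.0% (68.1 to 71.9) on day 14. Without cells of over 30000 UMIs it was 74.0% (67.0 to 80.3) on day 3, 70.6% (65.3 to 75.6) on day 7 and 68.6% (66.3 to 70.8) on day 14. The intervals of days 3 and 7 then overlapped that of day 0. On day 7 the Ccnd1 share in endothelial-like cells was carried by deep cells: it was 75.8% in all, and 31.1% (19.9 to 44.3) without cells of over 30000 UMIs, from 19 of 61 UMIs, when the Ccnd2 share was 44.3%. Shares come from within 1 library and class, so they need no scaling to total UMIs.

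**Figure D2:**
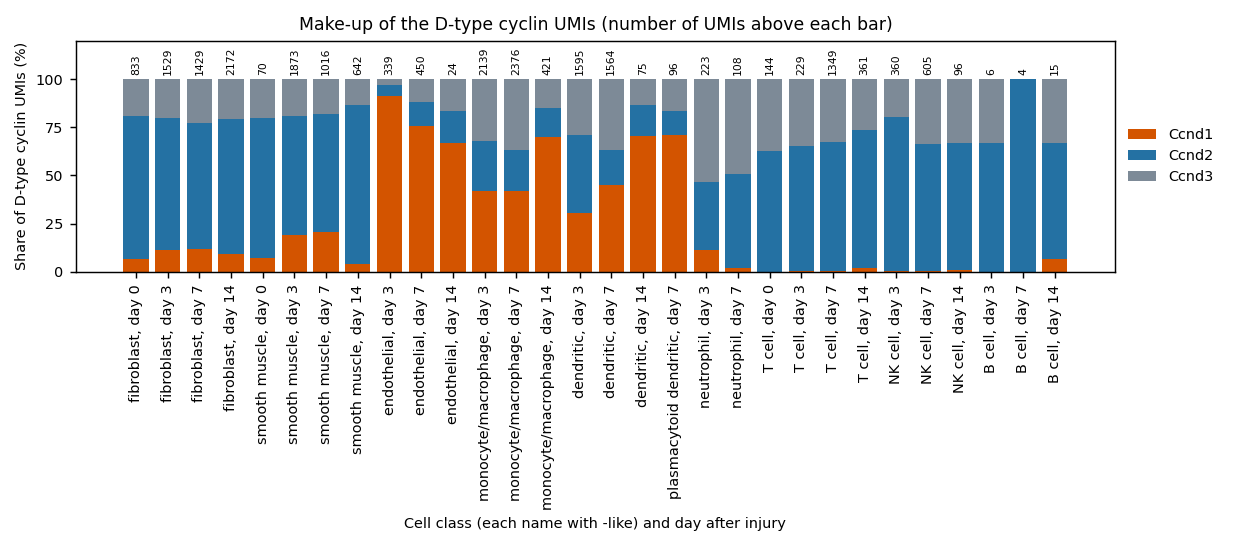
Share of Ccnd1, Ccnd2 and Ccnd3 among the D-type cyclin UMIs (vertical axis, percent) for each cell class and day with at least 10 cells, with the number of UMIs above each bar. Ccnd1 makes up 66.7% to 91.4% in endothelial-like cells (31.1% rather than 75.8% on day 7 without cells of over 30000 UMIs) and is nearly absent from T cell-like and NK cell-like cells.

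Ccnd1 stood at 1542 CPM (1375 to 1724) in endothelial-like cells on day 3, 454 CPM (407 to 505) on day 7 and 298 CPM (170.5 to 484) on day 14, from 310, 341 and 16 UMIs in 40, 56 and 24 cells. The day 7 level was 0.295 (0.252 to 0.345) of the day 3 level. In this class single cells weighed heavily, since 196 of the 341 UMIs on day 7 came from 1 cell, and 2 cells of over 30000 UMIs on day 3 and 7 on day 7 gave 69.7% and 71.7% of all endothelial-like UMIs. Without those deep cells Ccnd1 stood at 3419 CPM on day 3 and 89.5 CPM on day 7, so the direction between these days remained and the gap was wider. The day 14 cells held no deep cell, and their 298 CPM then lay above day 7, whose interval was 53.9 to 139.8 CPM. At day 14 the 16 summed monocyte/macrophage markers reached 12469 CPM in endothelial-like cells, above the 6859 CPM of their 12 endothelial markers, and the part this had in the value was not tested.

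Outside the endothelium, Ccnd1 was highest in plasmacytoid dendritic-like cells on day 7 (617 CPM, 68 UMIs in 10 cells) and in dendritic-like cells, with 276, 304 and 332 CPM on days 3, 7 and 14. In monocyte/macrophage-like cells it stood at 153 CPM (143 to 164), 105 CPM (98.4 to 112) and 199.8 CPM (178 to 224) on those days. It made up 42.1% and 41.7% of their D-type UMIs on days 3 and 7 and 70.1% (65.4 to 74.4) on day 14. The day 14 share was thus above both earlier ones beyond counting error, while the Ccnd3 share was 37.0% on day 7 and 15.0% on day 14. Clusters within the class differed widely: the Rsad2 and Cxcl10 cluster held 473 CPM on day 3 and 240.1 CPM on day 7, and the Plac8 and Chil3 cluster 43.1 and 33.1 CPM on those days. The macrophage cluster led by Ms4a7 and C1qa held 317 CPM on day 3, 142 CPM on day 7 and 231 CPM on day 14.

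In smooth muscle-like cells, Ccnd1 stood at 43.3 CPM (14.1 to 101) on day 0, 84.4 CPM (75.8 to 93.7) on day 3, 81.7 CPM (71.1 to 93.5) on day 7 and 17.7 CPM (11.4 to 26.4) on day 14. Days 3 and 7 did not differ beyond counting error, and the day 0 value rested on 5 UMIs. From day 7 to day 14 the ratio was 0.217 (0.136 to 0.332), and its share of D-type UMIs went from 20.9% to 3.74% (8.09% to 1.53% without cells of over 30000 UMIs). Over the same step Ccnd2 went from 239.7 to 393 CPM, a ratio of 1.64 (1.46 to 1.84). At day 3, 100 of the 352 Ccnd1 UMIs came from 1 cell, and without cells of over 30000 UMIs the level was 40.7 CPM on day 3, 31.3 CPM on day 7 and 7.06 CPM on day 14, and the ratio of day 14 to day 7 was 0.225 (0.0748 to 0.573). In fibroblast-like cells Ccnd1 stood at 23.8, 42.3, 35.4 and 22.7 CPM, within counting error of smooth muscle-like cells on days 0 and 14 (on day 14, without cells of over 30000 UMIs, 3.20 times their level, 1.44 to 8.85), and 42 of its 173 UMIs on day 3 came from 1 cell. Without cells of over 30000 UMIs it stood at 19.7 CPM on day 3 and 17.0 CPM on day 7, within counting error of the day 0 level.

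Ccnd2 was highest in NK cell-like cells on day 3, at 1046 CPM (929 to 1174), against 400.3 CPM on day 7 and 449 CPM on day 14. The day 7 ratio was 0.383 (0.328 to 0.447). T cell-like cells stood at 629.7, 382, 378 and 470.0 CPM on days 0, 3, 7 and 14, the first from 18 cells in which 1 cell held 18 of the 90 UMIs. At days 7 and 14 the NK cell-like and T cell-like levels lay within counting error of each other. In dendritic-like cells Ccnd2 stood at 370.3 CPM (342 to 400) on day 3, 125 CPM (111 to 140) on day 7 and 75.3 CPM (38.9 to 132) on day 14, a ratio of 0.337 (0.292 to 0.388) from day 3 to day 7. It was lower on day 7 in each of the 3 dendritic-like clusters that could be compared, most in the one led by Ccr7 and Ccl22, from 788 to 207 CPM, in which Ccnd1 went the other way, from 92.3 to 293 CPM. In fibroblast-like cells Ccnd2 stood at 279.5 CPM on day 0, 257 on day 3, 202 on day 7 and 171 on day 14, and the day 14 ratio to day 0 was 0.612 (0.558 to 0.673).

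Ccnd3 varied least of the D-type cyclins in fibroblast-like cells, with 71.0, 75.1, 69.8 and 50.5 CPM on days 0, 3, 7 and 14. Among the named classes its highest level was that of T cell-like cells on day 0 (378 CPM), from 54 UMIs in 18 cells, followed by dendritic-like and NK cell-like cells on day 3, with 264 and 253 CPM. Neutrophil-like cells held more Ccnd3 than Ccnd1 on both days, with 53.4% and 49.1% of their D-type UMIs on days 3 and 7, and on day 7 the Ccnd2 share was also 49.1%. Their Ccnd1 share on day 3 was 11.2%, but 21 of its 25 UMIs came from 1 cell. In monocyte/macrophage-like cells Ccnd3 stood at 117 CPM (108 to 126) on day 3, 93.0 CPM (87.0 to 99.4) on day 7 and 42.7 CPM (32.8 to 54.6) on day 14.

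Ccne1, the E-type cyclin that activates CDK2 at the start of DNA synthesis, was scarce, with 342 UMIs in the cells kept. Among groups with at least 20 of its UMIs it was highest in smooth muscle-like cells, at 17.3 CPM (13.5 to 21.8) on day 3, 17.0 CPM (12.3 to 22.8) on day 7 and 1.48 CPM (0.179 to 5.34) on day 14. At day 0 no UMI was found among 115510, which allows up to 31.9 CPM, so a day 0 level like that of days 3 and 7 is within what this count allows and no fold is given. The day 14 level was 0.0872 (0.0102 to 0.334) of the day 7 level, from 2 and 44 UMIs. At day 7, 16 of the 44 UMIs came from 1 cell, and without cells of over 30000 UMIs 5 UMIs remained on day 3 (8.84 CPM), 1 on day 7 (1.42 CPM) and 2 on day 14 (2.35 CPM), so the difference between days 7 and 14 rested on the deep cells. Fibroblast-like cells held 0, 17, 21 and 5 Ccne1 UMIs on days 0, 3, 7 and 14, or 4.16 CPM on day 3 and 4.51 CPM on day 7. The exact 95% lower bounds of their ratios to the 0 UMIs of day 0 were 2.25 and 2.49, and 0.686 and 1.93 without cells of over 30000 UMIs.

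**Figure D3:**
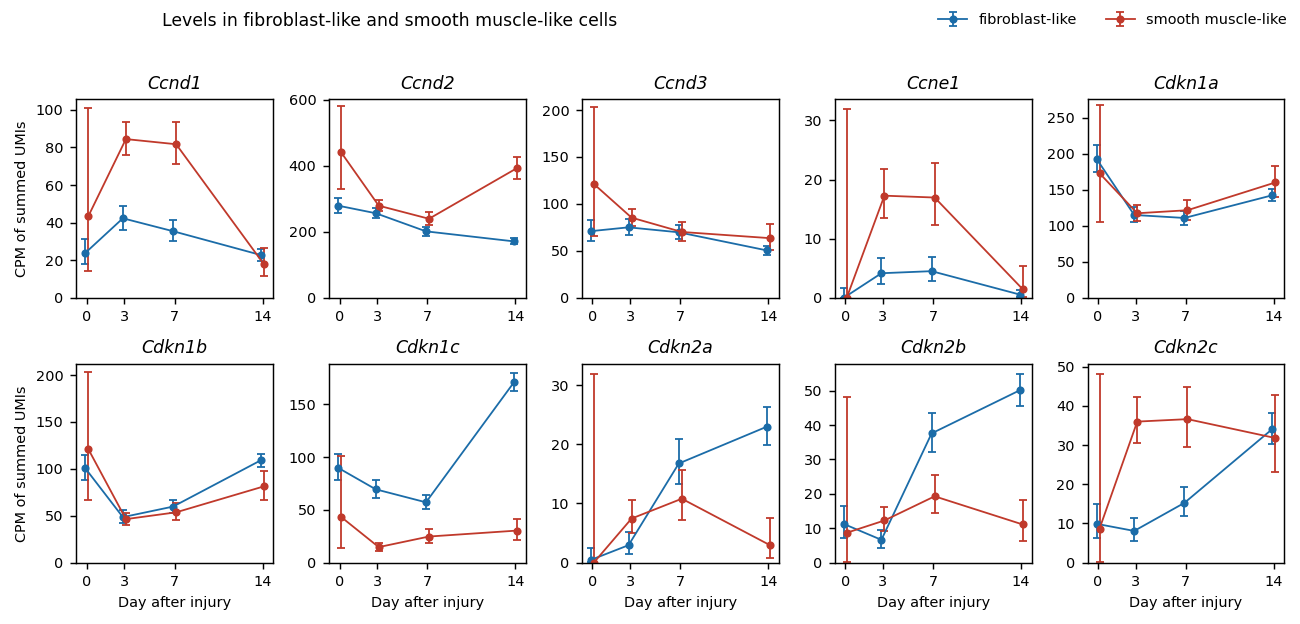
Level of each gene (CPM of summed UMIs, vertical axes from 0) on days 0, 3, 7 and 14 in fibroblast-like (blue) and smooth muscle-like cells (red), with exact 95% Poisson bars for counting error. Cdkn2a, Cdkn2b and Cdkn2c in fibroblast-like cells have their highest day on day 14, at 23.0, 50.1 and 34.1 CPM, Cdkn2c in smooth muscle-like cells stands at 36.0 and 36.6 CPM on days 3 and 7, and the smooth muscle-like bars on day 0, from 25 cells, span most of the plotted range for the scarce genes.

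Of the Cip/Kip inhibitors, Cdkn1a (p21, a target of p53) was the most abundant and was largely myeloid. It stood at 823 CPM (756 to 895) in neutrophil-like cells on day 3 and at 1470.4 CPM (1349 to 1599.9) on day 7, a ratio of 1.79 (1.58 to 2.02). In monocyte/macrophage-like cells it stood at 259.9 CPM (247 to 273), 457 CPM (444 to 471) and 638 CPM (598 to 680.2) on days 3, 7 and 14, from 1526, 4322 and 942 UMIs. It was higher at each later day beyond counting error, and supplied 83.9%, 87.7% and 91.0% of the Cip/Kip UMIs. Both of the clusters of this class that held at least 10 cells on all 3 days had the same direction: the Ms4a7 and C1qa cluster went from 294 to 405 and 620.0 CPM, and the Plac8 and Chil3 cluster from 388 to 578 and 1002 CPM. In fibroblast-like cells the day 0 level was highest, at 193 CPM (175 to 212), against 115, 111 and 143 CPM on days 3, 7 and 14. The day 3 level was 62.4 CPM, a ratio to day 0 of 0.323 (0.225 to 0.450), without cells of over 30000 UMIs. Smooth muscle-like cells ran close to them at the later days, with 118, 122 and 160.4 CPM, and the 2 classes lay within counting error of each other on day 3, though without cells of over 30000 UMIs fibroblast-like cells stood at 0.630 (0.406 to 0.968) of the smooth muscle-like level. In endothelial-like cells Cdkn1a stood at 34.8 CPM on day 3 and 116 CPM on day 7, a ratio of 3.33 (1.55 to 8.53), but 50 of the 87 UMIs on day 7 came from 1 cell and without the 5 cells that held most the level was 29.4 CPM.

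Cdkn1b (p27), an inhibitor known to accumulate in quiescent cells, had a narrower range over classes, from 46.3 to 186 CPM in groups of at least 10 cells. Neutrophil-like, plasmacytoid dendritic-like, T cell-like and NK cell-like cells held most of it on day 7, at 186, 154, 152 and 142 CPM, and neighbours in that order lay within counting error of each other. In both stromal classes it was low on day 3. Fibroblast-like cells stood at 101 CPM (87.9 to 115) on day 0, 48.4 CPM (41.9 to 55.7) on day 3, 59.7 CPM (52.9 to 67.1) on day 7 and 109 CPM (102 to 116) on day 14. Their ratio to day 0 was 0.481 (0.395 to 0.585) on day 3 and 1.08 (0.937 to 1.26) on day 14. Without cells of over 30000 UMIs the day 3 level was 65.6 CPM, a ratio to day 0 of 0.652 (0.454 to 0.916). The lower day 7 level rested on deep cells, since without cells of over 30000 UMIs it was 92.6 CPM, a ratio to day 0 of 0.919 (0.718 to 1.17). Smooth muscle-like cells stood at 121 CPM (66.3 to 203), 46.3 CPM, 53.6 CPM and 81.3 CPM on days 0, 3, 7 and 14, with ratios to day 0 of 0.382 (0.222 to 0.712) on day 3 and 0.442 (0.255 to 0.829) on day 7. When each cell weighed equally, the smooth muscle-like differences had the opposite sign, at log2 values of 0.28 and 0.54. When cells of over 30000 UMIs were left out, their intervals spanned 1, with ratios of 0.525 (0.276 to 1.05) and 0.669 (0.368 to 1.30).

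Cdkn1c (p57), an imprinted inhibitor linked to lasting exit from the cycle, was a gene of fibroblast-like cells. It stood there at 89.9 CPM (77.9 to 103) on day 0, 69.5 CPM (61.6 to 78.0) on day 3, 57.1 CPM (50.5 to 64.4) on day 7 and 171 CPM (162 to 179.7) on day 14. Smooth muscle-like cells were next on days 3, 7 and 14, at 14.6, 24.7 and 30.3 CPM, below fibroblast-like cells beyond counting error on each of them. On day 7 this rested on deep cells, as the levels without them were 26.4 CPM in fibroblast-like and 22.8 CPM in smooth muscle-like cells, a ratio of 1.16 (0.607 to 2.30). The day 14 level in fibroblast-like cells was 2.99 (2.62 to 3.42) times the day 7 level, and its share of the Cip/Kip UMIs went from 25.1% to 40.4% (38.9 to 42.0). With deep cells left out the day 14 level was 169 CPM, 6.39 (4.40 to 9.65) times that of day 7, the share went from 10.1% to 40.4%, and the day 7 level was 0.294 (0.191 to 0.438) of that on day 0. Much of this lay within 1 cluster led by C1qtnf3 and Angptl1, with 114 cells on day 7 and 334 on day 14, in which Cdkn1c went from 29.7 to 173 CPM, a ratio of 5.80 (4.71 to 7.23). The highest level was in the small Igfbp5 and Sema3c cluster, with 183 CPM on day 0 and 304 CPM on day 14. In the Rbp4 and Lamc3 cluster it was lower, at 60.2 CPM on day 0 and 41.8 CPM on day 14, and in the Clec3b and Gsn cluster it stood at 164 CPM on day 0 and 95.1 CPM on day 14, a ratio of 0.578 (0.375 to 0.879).

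With all cells counted, the INK4 inhibitors were the members past 2-fold from day 0 in fibroblast-like cells. Cdkn2a stood at 0.449 CPM (0.0114 to 2.50) on day 0, 2.93 CPM (1.52 to 5.13) on day 3, 16.7 CPM (13.2 to 20.9) on day 7 and 23.0 CPM (19.9 to 26.3) on day 14, from 1, 12, 78 and 204 UMIs. The ratio to day 0 was 37.3 (6.49 to 1491) on day 7 and 51.1 (9.07 to 2028) on day 14, with the width set by the single UMI on day 0. At day 7, 27 of the 78 UMIs came from 1 cell, and without the 5 cells that held most the level was 6.88 CPM on day 7 and 15.0 CPM on day 14. Without cells of over 30000 UMIs the levels were 7.56 and 15.9 CPM, still above the upper bound of the day 0 interval. Cdkn2b stood at 11.2 CPM (7.27 to 16.6), 6.60 CPM (4.35 to 9.61), 37.6 CPM (32.2 to 43.6) and 50.1 CPM (45.5 to 55.0) on days 0, 3, 7 and 14, which gave ratios to day 0 of 3.34 (2.19 to 5.31) on day 7 and 4.46 (2.98 to 6.96) on day 14. Cdkn2b without those deep cells stood at 17.0 CPM on day 7, a ratio to day 0 of 1.51 (0.778 to 2.89), and at 39.6 CPM on day 14, a ratio of 3.52 (2.34 to 5.53). The day 7 difference thus depended on the deep cells and the day 14 difference did not. Cdkn2c (p18) stood at 9.89, 8.07, 15.2 and 34.1 CPM, with a ratio to day 0 of 1.54 (0.944 to 2.61) on day 7 and 3.45 (2.24 to 5.59) on day 14. Its ratios without the deep cells were 2.10 (1.11 to 3.98) and 3.70 (2.39 to 6.00). At day 14 fibroblast-like cells exceeded smooth muscle-like cells beyond counting error for Cdkn2a and Cdkn2b, and the 2 classes did not differ beyond it for Cdkn2c, at 34.1 and 31.8 CPM. However, 26 of the 43 smooth muscle-like Cdkn2c UMIs on that day came from 1 cell, and without cells of over 30000 UMIs the levels were 36.6 CPM (32.3 to 41.2) and 14.1 CPM (7.29 to 24.6), which did differ. In smooth muscle-like cells Cdkn2a stood at 7.44, 10.8 and 2.96 CPM and Cdkn2b at 12.2, 19.3 and 11.1 CPM on days 3, 7 and 14. Without the deep cells, Cdkn2a stood at 5.30, 7.11 and 1.18 CPM and Cdkn2b at 5.30, 11.4 and 12.9 CPM, from at most 11 UMIs each. Smooth muscle-like Cdkn2c stood at 36.0 CPM on day 3 and 36.6 CPM on day 7, and without the deep cells at 17.7 and 29.9 CPM.

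Among fibroblast-like clusters the INK4 genes did not share 1 pattern. The C1qtnf3 and Angptl1 cluster, which had no group of 10 cells before day 7, went from 12.8 to 29.0 CPM in Cdkn2a, a ratio of 2.26 (1.61 to 3.24), from 41.9 to 61.5 CPM in Cdkn2b and from 12.8 to 34.5 CPM in Cdkn2c between days 7 and 14. The Saa3 and Prg4 cluster of deep cells went from 3.08 to 34.0 CPM in Cdkn2a and from 6.42 to 34.0 CPM in Cdkn2b between days 3 and 7. The Rbp4 and Lamc3 cluster, with 143 cells on day 0 and 46 on day 14, stood at 12.4 and 13.5 CPM in Cdkn2b, a ratio of 1.09 (0.454 to 2.43), with 1 Cdkn2a UMI on each day. Its Cdkn2c nevertheless went from 9.93 to 32.4 CPM, a ratio of 3.26 (1.66 to 6.56), and that of the Clec3b and Gsn cluster from 15.2 to 64.2 CPM, a ratio of 4.23 (1.69 to 12.6). The higher Cdkn2c on day 14 was thus present in clusters found on both days, whereas Cdkn2a and Cdkn2b were high in clusters with few or no cells on day 0.

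**Figure D4:**
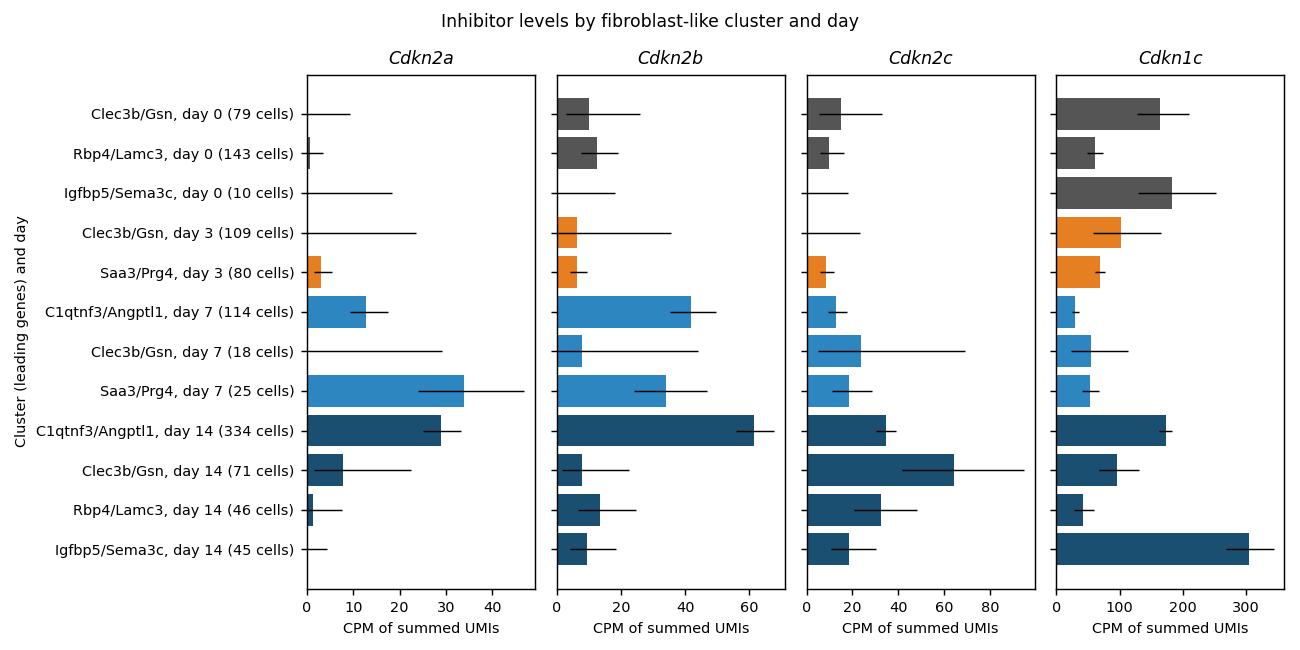
Level of Cdkn2a, Cdkn2b, Cdkn2c and Cdkn1c (CPM of summed UMIs, horizontal axes from 0) in each fibroblast-like cluster and day with at least 10 cells; colours mark the day and lines are exact 95% Poisson intervals. Cdkn2a and Cdkn2b are high in the C1qtnf3/Angptl1 cluster and in the Saa3/Prg4 cluster on day 7, and Cdkn1c is highest in the Igfbp5/Sema3c cluster on day 14 (304 CPM).

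Cdkn2a and Cdkn2b were found together in single cells. At day 7, 28 of 165 fibroblast-like cells had a Cdkn2a UMI, and on day 14, 53 of 496, of which 50 lay in the C1qtnf3 and Angptl1 cluster. Cells with a Cdkn2a UMI held 81.2 CPM of Cdkn2b against 22.9 CPM in the others on day 7, a ratio of 3.54 (2.60 to 4.83), and 147 against 34.2 CPM on day 14, a ratio of 4.29 (3.53 to 5.20). Cells with the UMI were deeper, with medians of 44474.5 against 22219 UMIs on day 7 and 23684 against 18030 on day 14. Cdkn2c did not show this, at 18.0 against 14.3 CPM on day 7 and 24.7 against 35.6 CPM on day 14, with both intervals spanning 1. None of the 28 or the 53 cells was classed as cycling (at least 2 UMIs of proliferation genes after thinning to 1000 UMIs), but only 3 of 135 and 1 of 429 of the cells without a Cdkn2a UMI were, so these counts do not separate the 2 kinds of cell. The 53 cells on day 14 had more Ccnd1 than the others, at 42.2 against 19.5 CPM, a ratio of 2.16 (1.55 to 2.98), which was not so on day 7 (29.9 against 37.3 CPM). Their Cdkn1a stood at 65.0 against 126 CPM on day 7, a ratio of 0.514 (0.398 to 0.657), and at 179 against 137 CPM on day 14, a ratio of 1.31 (1.13 to 1.51). In an unnamed cluster of shallow cells led by H19 and Mt2, Cdkn2a stood at 177 CPM on day 14, from 7 UMIs in 47 cells.

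Past a 2-fold difference, taken as a log2 ratio of CPM + 10 beyond 1 in either direction with at least 20 UMIs over the 2 sums, the members compared as follows. In fibroblast-like cells 0 of 8 members passed on day 3 against day 0, where 7.21% of all genes did. At day 7, 2 of 10 passed, Cdkn2a and Cdkn2b, both higher, beside 7.01% of all genes. Without cells of over 30000 UMIs neither was among them: Cdkn2b had a log2 ratio of 0.35, Cdkn2a kept too few UMIs (8 and 1) to be compared, and Cdkn1c alone passed, lower, at -1.45. At day 14, 3 of 9 passed, Cdkn2a, Cdkn2b and Cdkn2c, all higher, beside 3.97%, and these 3 passed without the deep cells too. In smooth muscle-like cells 4 of 10 passed on day 3, 4 of 10 on day 7 and 1 of 7 on day 14, beside 24.0%, 25.2% and 14.3% of all genes. Of these 9 differences, only the 2 of Cdkn1b, lower on days 3 and 7, had intervals that left out 1, and the others rested on 0 to 5 UMIs in the 25 cells of day 0. The smooth muscle-like class also held fibroblast markers, whose 12 genes summed to 3246, 12702, 16364 and 9122 CPM over the 4 days against 37408, 16007, 12202 and 41364 CPM of its own 12, and their part in these values was not tested.

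In immune and endothelial classes day 3 was the reference, since day 0 held at most 18 cells of each (T cell-like). Monocyte/macrophage-like cells had 0 of 8 members past 2-fold on day 7 and 2 of 7 on day 14, Cdkn1a higher with a ratio of 2.45 (2.26 to 2.66) and Ccnd3 lower with 0.366 (0.278 to 0.475), beside 1.91% and 4.9% of all genes. Dendritic-like cells had 1 of 7 on day 7, Ccnd2, beside 1.41%. Their 4 of 6 on day 14 (beside 14.6%) came from 19 cells, with Ccnd2, Ccnd3 and Cdkn2b lower and Cdkn1b higher, and the Cdkn2b interval spanned 1. In NK cell-like cells Ccnd2 alone passed, 1 of 5 on day 7 and 1 of 4 on day 14, beside 6.03% and 9.24%. In T cell-like cells it was Cdkn2c, 1 of 6 on day 7 (0 without cells of over 30000 UMIs) and 0 of 4 on day 14, beside 3.4% and 6.65%. In neutrophil-like cells 1 of 5 passed, the Ccnd1 difference that rested on 1 cell, beside 6.38%. Endothelial-like cells had 3 of 6 on day 7, Ccnd1 and Cdkn2c lower and Cdkn1a higher, and 2 of 3 on day 14, Ccnd1 and Cdkn2c lower, beside 16.9% and 40.6%. Of these, only the Ccnd1 differences passed without cells of over 30000 UMIs: Cdkn1a (14 against 4 UMIs, a ratio of 1.00) and Cdkn2c (5 and 1 against 4 UMIs) kept too few UMIs to be compared, and Cdkn1b then passed on day 7, higher, with an interval that spanned 1. From day 7 to day 14, 1 of 10 members passed in fibroblast-like cells (Cdkn1c, higher), 2 of 10 in smooth muscle-like cells (Ccnd1 and Ccne1, lower, the latter not without the deep cells) and 0 of 8 in monocyte/macrophage-like cells, beside 2.38%, 7.57% and 1.79%.

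Cycling cells were those with at least 2 UMIs from 16 proliferation genes after each cell was thinned to 1000 UMIs, with shallower cells left out. Monocyte/macrophage-like cells had 30 of 523 cycling on day 3 and 33 of 893 on day 7, smooth muscle-like cells 18 of 104 and 18 of 91, and endothelial-like cells 11 of 24 on day 3. No other named class and day reached 10, and fibroblast-like cells had 0 of 208, 0 of 116, 3 of 163 and 1 of 482 on days 0, 3, 7 and 14. Without thinning, 17.1% and 13.7% of monocyte/macrophage-like, 42.4% and 37.8% of smooth muscle-like cells on days 3 and 7, 60.0% of endothelial-like cells on day 3 and 1.29%, 11.9%, 23.0% and 5.44% of fibroblast-like cells on days 0, 3, 7 and 14 reached 2 UMIs, shares that move with depth. Cells near the threshold were many, as 28 and 46 monocyte/macrophage-like and 10 and 5 smooth muscle-like cells lay 1 UMI below it on days 3 and 7. With 3 UMIs required, 33 of 35 ratios between cycling and other cells were on the same side of 2-fold, the exceptions being Cdkn1a on day 3 and Ccne1 on day 7 in monocyte/macrophage-like cells. Cycling smooth muscle-like cells also held fibroblast genes, with Dcn at 2231 CPM and Lum at 685 CPM on day 3 beside Acta2 at 1919.8 CPM, so these cells were not of 1 clear class.

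Cdkn2c was higher in cycling cells than in other cells of the same class in all 5 groups, by 14.8-fold (9.59 to 23.3) and 11.9-fold (8.45 to 16.7) in monocyte/macrophage-like cells on days 3 and 7, and by 8.76-fold (5.91 to 13.3) and 6.79-fold (4.14 to 11.6) in smooth muscle-like cells. In endothelial-like cells on day 3 all 23 of the UMIs compared lay in cycling cells, 21 of them in 1 cell. Its relative Cdkn2d, another INK4 gene and no member, was likewise higher in 5 of 5 groups, by 3.10-fold to 21.8-fold. In fibroblast-like cells on day 14, where Cdkn2c was higher than on day 0, 1 of 482 cells was classed as cycling, and 5.44% reached 2 UMIs without thinning. The part that cycling cells had in that Cdkn2c level was not tested. Ccne1 was higher in cycling cells in 3 of the 4 groups with at least 20 UMIs, by 14.6-fold (7.95 to 27.7) and 5.53-fold (2.61 to 11.2) in monocyte/macrophage-like cells and by 2.54-fold (1.34 to 4.87) in smooth muscle-like cells on day 7, and its interval spanned 1 in the latter class on day 3. Cycling monocyte/macrophage-like cells were deeper than the others, with medians of 25112.5 against 8652 UMIs on day 3 and 11596 against 9391.5 on day 7. So were cycling smooth muscle-like cells, with 66896.5 against 23778.5 on day 3 and 31817 against 14802 on day 7. Cycling endothelial-like cells on day 3 were shallower, with 1272 against 2664. The part that depth had in these ratios was not tested.

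The D-type cyclins differed far less between cycling and other cells. Ccnd1 ran from 0.704-fold to 1.43-fold over 5 groups, with 2 higher and 1 lower beyond counting error. Ccnd2 was lower in 3 of 4, by ratios of 0.623 to 0.728, and higher at 1.97 in monocyte/macrophage-like cells on day 3, where Ccnd3 was higher too, at 1.66 (1.36 to 2.02). Among the Cip/Kip genes, Cdkn1a was lower in cycling cells in 3 of 4, at ratios of 0.594 and 0.643 in monocyte/macrophage-like cells and 0.627 in smooth muscle-like cells on day 3. In smooth muscle-like cells on day 7 it went the other way, at 1.88 (1.50 to 2.36). Cdkn1c was lower in cycling smooth muscle-like cells on day 3, at 0.173 (0.0457 to 0.469), and spanned 1 in the other 2 groups compared. Cdkn1b spanned 1 in 3 of 4 groups and was higher in cycling smooth muscle-like cells on day 3, at 1.61 (1.19 to 2.16). Cdkn2a was higher in cycling smooth muscle-like cells on day 3, at 2.64 (1.22 to 5.73), and stood at 1.07 (0.442 to 2.45) on day 7, the other group compared.

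**Figure D5:**
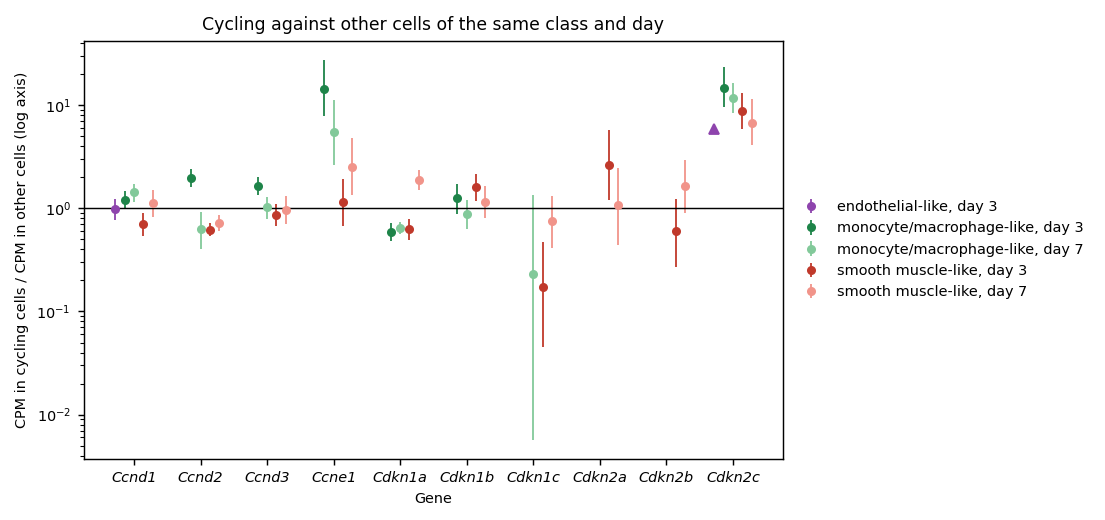
Ratio of the CPM in cycling cells to that in other cells of the same class and day (log axis), for members with at least 20 UMIs over both, with exact 95% intervals. The triangle is the lower bound where the other cells had no UMI; Cdkn2c lies above 1 in all 5 groups and the D-type cyclins lie between 0.623 and 1.97.

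Other genes of the pathway were read from lists chosen by name. Of 25 genes of CDK, RB and E2F, none of the 18 compared passed 2-fold in fibroblast-like cells on day 7 and none of 20 on day 14, and 1 of 18, Tfdp2 (a partner of E2F), was lower on day 3. Their medians were 0.15, 0.03 and -0.02 in log2, beside -0.08, -0.03 and -0.01 over all genes. Cdk6, the kinase that D-type cyclins activate, stood at 8.54 CPM on day 0 and 25.5 CPM on day 7 in them. In smooth muscle-like cells 12 of 25 were higher on day 3 and 11 of 24 on day 7, and 6 of 7 replication licensing genes (Mcm2 to Mcm7 and Pcna, which load and clamp the replication machinery) were higher on both days, beside the 14.6% and 16.9% of all genes that were. The day 0 reference was thin, with 9 UMIs over the 7 licensing genes and 56 over the CDK, RB and E2F list. Cells of over 30000 UMIs gave 86.4% and 72.9% of the UMIs of this class on days 3 and 7, and day 0 had none. The 16 proliferation genes in the same class had 8 higher and 1 lower on day 3 and 7 higher and 2 lower on day 7. Their summed level was 1351 CPM on day 0, 1675 on day 3 and 1408 on day 7. The day 0 sum came from 156 UMIs in 25 cells, and 1 of the 12 cells that could be thinned was classed as cycling. On day 14 the summed level was 605 CPM, with 1 higher and 4 lower of 13 compared, beside 14.3% of all genes past 2-fold in either direction. At day 14 none of the 13 CDK, RB and E2F genes and none of the 2 licensing genes compared passed. Ccna2, the cyclin of S phase, went from 8.66 CPM, 1 UMI on day 0, to 81.1 CPM on day 3. In endothelial-like cells 6 of 14 CDK, RB and E2F genes, 6 of 6 licensing genes and 14 of 16 proliferation genes were lower on day 7 than on day 3, beside 5.64% of all genes. There, 2 cells of over 30000 UMIs gave 69.7% of the UMIs on day 3, and 7 such cells gave 71.7% on day 7.

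Targets of p53 bear on Cdkn1a and on the p19Arf product of Cdkn2a. In fibroblast-like cells 1 of 17, Plk2, was higher on day 3, 2 of 17 on day 7 (Plk2 and Btg2) and 3 of 17 on day 14 (Btg2, Plk2 and Gadd45a), and none was lower, beside 3.33%, 3.72% and 2.39% of all genes that were higher. Plk2, a kinase induced by stress, stood at 3.15 CPM on day 0, 18.1 on day 3, 125 on day 7 and 30.4 on day 14. Btg2, an antiproliferative gene, stood at 173 CPM on day 0, 367 on day 7 and 576 on day 14. The list's medians were 0.17, 0.23 and 0.18, beside -0.08, -0.03 and -0.01 over all genes. Cdkn1a itself was lower than on day 0 at each of these days. In monocyte/macrophage-like cells 3 of 17 were higher on day 7 and 4 of 17 on day 14, beside 1.21% and 2.46% of all genes, and none was lower. Smooth muscle-like cells were mixed, with 3 higher and 2 lower of 17 on day 3 and 5 higher and 2 lower of 17 on day 7. Of all genes, 24.0% and 25.2% passed in either direction there. The summed level of the list was 2311 CPM on day 0, 1086 on day 3 and 1286 on day 7. Dendritic-like cells on day 14, 19 in number, had 2 higher and 4 lower of 13, beside 14.6% of all genes past 2-fold in either direction.

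Genes whose levels ran most like a member's were sought over 23 groups of class and day among 11600 genes, by Pearson correlation of log2(CPM + 10); the groups share libraries and differ in depth, and the values are descriptions. Ccnd1 ran closest to Tcp11l1 (0.909), F11r and Chst7, Ccnd2 to Acss2 (0.803), Rabgap1l and Tnik, and Ccnd3 to Vrk3 (0.886), Pdcd1lg2 and Stk24. Ccnd1 and Ccnd2 ran opposite to each other (-0.66). Ccne1 ran closest to Metrn (0.790), Bysl and Ung. Among Cip/Kip genes, Cdkn1a ran closest to Nfe2l2 (0.957), Atp6v0b and Sat1, Cdkn1b to Mysm1 (0.928), Ankrd12 and Upf2, and Cdkn1c to Pcsk5 (0.970), Serping1 and C1s1. Among INK4 genes, Cdkn2a ran closest to Piezo2 (0.910), Ank3 and Capn6, and Cdkn2b to its neighbour on the chromosome, Cdkn2a (0.887), followed by Thbs2 and Dnm3os. Cdkn2c ran closest to Faf1 (0.884), which lies 9870 bases from it, then to Rrm1 and Map3k7. Some members overlap another annotated gene, Ccnd1 with LTO1, Ccnd2 with 9330179D12Rik, Ccnd3 with Gm41590 and Bysl, and Cdkn2b with Gm12610, and the use of strand in counting is not given in the sources used here, so their counts may include such reads.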

How the data were processed

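Single-cell RNA was measured in 4 libraries of pooled carotid arteries. The authors deposited raw UMI counts per gene and barcode, made with Cell Ranger (file headers name version 3.0.2; the methods name another), and the count values were used as deposited. The build given for the reads is that of another species, so the one used for the mouse reads is not established here. Barcodes with under 200 genes or over 20% mitochondrial UMIs were removed (453 of 6161). Scrublet scores marked 106 likely doublets at 0.8% per 1000 barcodes, 19 of them among the barcodes already removed, since its own threshold marked 20. Cells were clustered with scanpy 1.11.5 and leidenalg 0.10.2 (2000 variable genes, 30 components, 15 neighbours, resolution 1), leaving the members and listed genes out. A cluster was named where at least 3 markers stood out. These naming rules were settled after the clusters had been seen. UMIs were summed per class and library, with exact Poisson, binomial and conditional intervals (scipy 1.17.1). Members and lists were chosen with earlier results of these data known. All 10 members are named, with the 3 closest genes of each and up to 4 genes a list. Scripts were tested on simulated data. With 1 library per time point, no test was made. Sequences and positions are from RefSeq (GRCm38.p6), and 10 of 10 members matched by symbol.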

Additional observations from a re-analysis of the deposited data

Results flagged for a closer look

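Cdkn2c went in opposite directions between days 3 and 7 in T cell-like and endothelial-like cells: the ratio was 4.72 (1.25 to 39.9) in the former and 0.246 (0.134 to 0.452) in the latter. The difference was not tested, as each class had 1 library a day. The first ratio rested on 2 UMIs on day 3 against 58 on day 7. The second rested on 25 against 23 UMIs, and 21 of the 25 came from 1 cell.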

How the results depend on the processing

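No paired analysis was possible because there is 1 library per time point. Counts of members past 2-fold, on the day named against the reference day of the report, moved as follows. With each cell's CPM averaged, they were 2, 2 and 2 in smooth muscle-like cells on days 3, 7 and 14 and 1 in monocyte/macrophage-like cells on day 14. The shares of Cdkn1c in fibroblast-like and Cdkn1a in monocyte/macrophage-like Cip/Kip UMIs on day 14 were then 38.5% and 83.3%, and 3 smooth muscle-like differences changed sign, to log2 values of 0.28 (Cdkn1b, day 3), 0.54 (Cdkn1b, day 7) and 0.0629 (Cdkn1c, day 3). With each library clustered on its own, the counts were 1 and 1 in fibroblast-like cells on days 3 and 7 and 0 in smooth muscle-like cells on day 14, and the Cdkn1a share was 88.0%. Without cells of over 30000 UMIs, they were 1 and 1 in fibroblast-like cells on days 3 and 7, 0, 1 and 0 in smooth muscle-like cells on days 3, 7 and 14, 1 in endothelial-like cells on day 14 and 0 in T cell-like cells on day 7. The fibroblast-like ones were then Cdkn1a, lower, on day 3 and Cdkn1c, lower, on day 7, in place of Cdkn2a and Cdkn2b on the latter day. In endothelial-like cells on day 7, Ccnd1 and Cdkn1b then passed, in place of Ccnd1, Cdkn1a and Cdkn2c. At a clustering resolution of 2, the fibroblast-like count on day 7 was 1. With 1 CPM added in place of 10, it was 1 in fibroblast-like cells on day 3, 2 in smooth muscle-like cells on day 14 1 in monocyte/macrophage-like cells on day 7 and 2 in dendritic-like cells on day 7. With no UMI minimum, the NK cell-like count on day 14 was 3. Without the Saa3 cluster (a setting that was added once the data had been seen) the fibroblast-like count on day 3 was 2. The causes were not tested. Of the members' log2 differences between days or between cycling and other cells, 131 were on the same side of 2-fold under cell averages, 11 passed it newly and 7 no longer did. Without deep cells these numbers were 91, 3 and 4 among the differences still compared. Differences past 2-fold that then had too few UMIs are outside these numbers, such as Cdkn2a in fibroblast-like and Cdkn1a in endothelial-like cells on day 7. Under the higher doublet rate of 1.6% per 1000 barcodes, 114 held and 1 was lost. Without thinning, 162 shares of cells with a UMI moved and 138 did not. Depth limits the scarce genes most: smooth muscle-like cells on day 0 held 115510 UMIs, so 0 UMIs there allow up to 31.9 CPM, and endothelial-like values on day 14 rest on 24 cells. Intervals cover counting error only, and variation between animals was not measured.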
